A study of Drosophila melanogaster with 3 samples.

Results

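The fourth chromosome of Drosophila melanogaster, the small dot chromosome, carries genes inside a mostly heterochromatic arm. Its genes are bound by Pof, an RNA-binding protein that coats this chromosome, and by heterochromatin proteins, and many of them act in development and in the nervous system. The measurements below follow 45 named genes of this chromosome, listed by name and found on the array through the locus tag in the probe annotation. All 45 had a probe, with 110 probes in all out of 32162 on the array, and 34 other genes of chromosome 4 also had one. The reference annotation (Release 6) places all 45 on chromosome 4 and now calls Thd1 Tdg and Arf102F Arf4. No coordinates are given because the array was annotated on an earlier build.

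Flies were mated adults of the wild-type OreR strain. Their age is 2 to 4 d in the label of germline and is not given in those of thorax. The methods of the study give a wider range of ages for all dissections. Premeiotic germline is the apical tip of testes from adult males of 2 to 4 d, with the somatic sheath taken off, and its cells are hub cells, stem cells, somatic cyst cells, spermatogonia and early primary spermatocytes. Male thorax and female thorax were dissected free of head, abdomen, legs and wings and are mostly flight muscle, with nerve cord, fat, cuticle and blood cells. RNA of each tissue, pooled from many dissections, was hybridized to 4 one-colour Agilent arrays. In such bulk RNA, fewer cells of a type and less RNA per cell cannot be told apart.

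The share of probes well above background was 56.4% to 73.7% on germline arrays and 63.5% to 73.3% on thorax arrays. Unscaled, the germline arrays were brighter, with a 75th percentile of log2 13.52 to 13.78 against 10.48 to 11.71 in thorax. Levels are therefore given as log2 intensity after every array was brought to a common 75th percentile, and a change is a difference of such levels. The median change of all probes tested, germline minus male thorax, was -1.05 at the 75th percentile, -0.36 after quantile normalization and 1.29 with no scaling, so that a small change between these tissues can turn its sign with the scaling. Germline markers bore out the label, with 8 of 9 higher in germline than in male thorax under all 3 scalings, among them vas (12.31 to 13.17 in germline, 4.06 to 5.82 in male thorax). Of muscle markers, 8 of 8 were lower in germline under all 3. Germline replicate 1 stood apart from the other 3 germline arrays, with zpg, a germline gap junction gene, at 3.22 against 9.81 to 9.99, and the results named below as resting on it are given without it too. Female thorax replicates 1 and 4 read 9.77 and 9.62 for vas against 4.69 and 5.45 on the other 2, and AGO3, of the piRNA pathway, was also higher on those 2 (8.88 and 8.25 against 5.18 and 5.05), as was zpg. Male thorax replicate 3 was the highest male thorax array for all germline markers but bam and zpg, such as aub (8.02 against 4.74 to 6.72) and Rbp4 (8.93 against 5.46 to 7.49). What these readings add to the comparisons with either thorax was not tested. The arrays lay on 3 slides. Replicates 1 and 2 of both thoraxes shared a slide with no germline array, replicates 3 and 4 of male thorax shared one with germline replicates 1 and 2, and replicates 3 and 4 of female thorax shared one with germline replicates 3 and 4.

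Which of the 45 genes carried a high thorax and low germline signal was asked first. Each gene is represented by its brightest probe, and levels of different genes are not set against each other. The germline mean lay below both thorax means for 37 genes, above both for 7 and between them for 1, toy, on the 75th percentile scale. With no scaling the change against male thorax turned its sign for 17 of the 45. Of the 45, 43 were well above background on every thorax array measured, the exceptions being mGluR and Ekar, and 36 were so on every germline array. Syt7, onecut and zfh2 were well above background on no germline array. None of these counts was made over all genes, so they describe this list only.

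**Figure D1:**
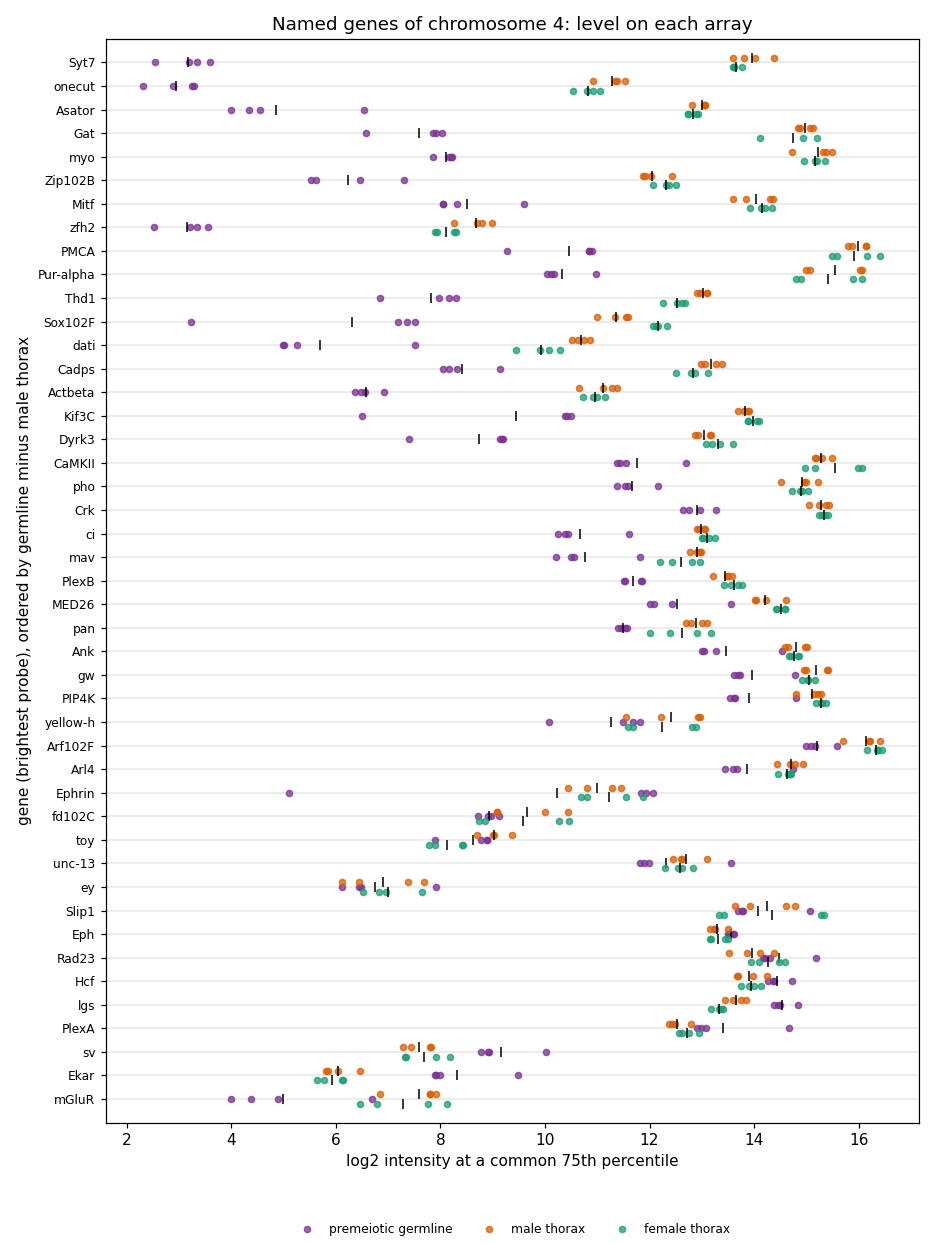
Log2 intensity at a common 75th percentile (x axis) of the brightest probe of the 45 genes (rows, ordered by germline minus male thorax, with the untested mGluR last) on every array. Points are arrays, coloured by tissue, and black ticks are tissue means. In the upper rows, from Syt7 to pho, the germline points lie left of all thorax points, and in the rows of sv and Ekar they lie right of them.

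Tested with limma over all 12 arrays, with p-values adjusted by Benjamini-Hochberg over 24878 probes and a threshold of 0.05, 30 genes were lower in germline than in male thorax, 5 were higher and 9 were not called. The brightest probe of mGluR was removed by the filter on dim probes, since its unscaled mean was below log2 7 in all 3 tissues. The 30 are 68.2% of the 44 genes tested, and the share of genes called lower among all 12036 genes tested by their brightest probe was 41.2%. The 5 are 11.4%, against 37.5% of all genes called higher. With no scaling the split was 19 lower and 18 higher, against 19.3% and 59.2% of all genes. On the slide that held both tissues, with 2 arrays of each, it was 19 lower and 0 higher, against 21.5% and 20.4% of all genes. Without germline replicate 1 the counts were 31 and 6, against 45.9% and 40.5%. Against female thorax, which shares the germline arrays with this comparison, 30 genes were lower and 3 higher at the 75th percentile, against 41.5% and 36.7% of all genes, and 18 and 20 with no scaling, against 17.4% and 62.3%.

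A set of 19 genes was lower in germline than in male thorax under all 3 scalings, which is 43.2% of those tested against 19.3% of all genes. It holds Cadps, Mitf, zfh2, Pur-alpha, pho, CaMKII, Syt7, Zip102B, dati, Asator, Gat, Sox102F, onecut, Actbeta, myo, Thd1, Kif3C, Dyrk3 and PMCA. Their changes ran from -10.78 to -3.26 on the 75th percentile scale, with a median of -5.22. Against female thorax 18 of the 44 genes tested were lower under all 3 scalings, where 17.4% of all genes were. These 18 belong to the same set, which shares the germline arrays, and pho alone of the set was not among them. Only sv, lgs and Ekar were higher in germline under all 3 scalings in both comparisons, 6.82% of the genes tested against 36.9% of all genes with male thorax and 35.9% with female thorax. Another 11 genes were called lower at the 75th percentile but not under every scaling (ci, MED26, pan, mav, PlexB, Crk, PIP4K, Arf102F, Arl4, gw and Ank), and 10 of these had a change above 0 with no scaling.

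The median change of the 44 genes, germline minus male thorax, was -1.95 at the 75th percentile and 0.40 with no scaling. It lay below the median change of 10018 genes of the large autosomes under each scaling, with a difference of -1.87 at the 75th percentile and with no scaling, since a constant shift of an array moves both medians alike, and of -2.26 after quantile normalization. Against female thorax the difference was -1.81, or -2.25 after quantile normalization. These medians are descriptions of a list of genes chosen by name, and no test was made on them.

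Genes of the synapse and of neuronal excitability included Syt7 and Gat, both among the 8 largest falls. Of 9 such genes, 8 were tested, and 5 were lower in germline than in male thorax under all 3 scalings, where 19.3% of all genes were. Ekar was higher under all 3, as were 36.9% of all genes. At the 75th percentile unc-13 and Slip1 were not called, and their changes of -0.38 and -0.16 turned to 1.97 and 2.18 with no scaling. Over all probes tested the median change was -1.05, and over 10018 genes of the large autosomes, by their brightest probe, it was -0.08. The median change of this list, also by brightest probes, was -3.95. The neuron markers checked beside it were 8 of 9 lower and 1 higher (brp) at the 75th percentile, with 3 lower under all 3 scalings, and their summed level (log2 of the summed intensities) was 16.8 to 16.9 in germline and 18.5 to 18.9 in male thorax. Syt1 (means of 15.69 in germline and 17.73 in male thorax) and Rdl (15.53 and 17.40) had the largest intensities in this sum. Neither was called after quantile normalization or with no scaling, so the fall of the sum hangs on the scaling. In germline brp was bright too, at 14.05. Of the glia markers 4 of 4 were lower, with summed levels of 12.9 to 14.4 and 17.5 to 17.8, and VGlut among the neuron and repo among the glia markers were well above background on no germline array. Their part in the result was not tested.

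Syt7 encodes a synaptotagmin, a calcium sensor of vesicle release. It read 3.34, 2.55, 3.19 and 3.60 on the germline arrays, 14.03, 13.59, 14.38 and 13.82 in male thorax, and 13.62, 13.60, 13.77 and 13.61 in female thorax. The thorax arrays lay close together and far above the germline arrays, none of which was well above background. Against the lowest signal that counts as well above background, Syt7 was at least 434.5-fold higher in male thorax and at least 352.1-fold higher in female thorax (limma change -10.78 ± 0.26 SE, adjusted p = 1.24e-10, and -10.48 ± 0.26 SE, adjusted p = 1.43e-10), and it remained lower in germline with no scaling, by -8.44. Each such bound sets the mean of the bright tissue against the mean, over the germline arrays, of the higher of that lowest signal and the probe's own. The other 2 probes of Syt7 were also lower, with -5.66 the smallest of the 3 changes.

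Gat encodes the GABA transporter that in flies is found on glia. It read 6.58, 8.03, 7.92 and 7.85 in germline, 15.08, 15.13, 14.84 and 14.88 in male thorax, and 14.94, 15.20 and 14.12 on 3 female thorax arrays. The spot on female replicate 4 was set aside as an outlier by the scanner software, so that n = 3 there. Tissues did not overlap between germline and thorax, and the change was -7.39 ± 0.37 (SE, limma adjusted p = 1.95e-08) against male thorax, or -5.04 with no scaling. Its second probe fell further, by 9.66 on the log2 scale.

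Ekar, a kainate-type glutamate receptor subunit, went the other way. It read 9.48, 7.98, 7.89 and 7.91 in germline, 5.85, 5.81, 6.46 and 6.04 in male thorax, and 5.78, 6.14, 5.65 and 6.12 in female thorax. All germline arrays lay above all thorax arrays, where only 2 male and 1 female array were well above background. The change was 2.28 ± 0.36 (SE, limma adjusted p = 1.12e-04) against male thorax and 2.39 ± 0.36 against female thorax. With the background corrected by normexp it was 1.00 against male thorax and 0.15 against female thorax, and neither passed (adjusted p of 0.194 and 0.852), and on the shared slide it was 2.48 (adjusted p = 0.070).

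Of the other synaptic genes lower under all 3 scalings, Cadps, which primes dense-core vesicles, had a mean of 8.42 ± 0.50 in germline and 13.18 ± 0.19 in male thorax (SD, n = 4), and Kif3C, a kinesin motor gene, 9.45 ± 1.97 and 13.82 ± 0.09. Germline replicate 1 read 6.49 for Kif3C and the other 3 read 10.38 or more, all below thorax, and without replicate 1 the change was -3.39 in place of -4.37. CaMKII, the calcium and calmodulin-dependent kinase of synaptic plasticity, changed by -3.52 at its brightest probe and by -8.38 at the other. unc-13, which primes synaptic vesicles, was not called at its brightest probe (12.32 ± 0.83 in germline, 12.70 ± 0.29 in male thorax), while 2 of its 5 tested probes were lower and the widest change was -5.29. Without germline replicate 1, which read 13.56, the brightest probe was lower by -0.79 ± 0.18 (SE, limma adjusted p = 0.00202). Slip1, whose product binds the Slo potassium channel, read 14.08 ± 0.66 and 14.24 ± 0.55. mGluR, the metabotropic glutamate receptor, had means of 4.99 in germline and 7.59 in male thorax, and without the filter its change was -2.60 ± 0.58 (SE, limma adjusted p = 0.0017).

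The 3 ligands of the TGF-beta family on the chromosome were all lower in germline than in both thoraxes at the 75th percentile, 2 of them under every scaling. Of all genes, 41.2% and 41.5% were lower at the 75th percentile, and 19.3% and 17.4% under every scaling, against male and female thorax. myo (myoglianin), a myostatin-like ligand made by muscle and glia, read 7.86, 8.20, 8.22 and 8.17 in germline, 15.48, 15.32, 15.37 and 14.73 in male thorax, and 15.16, 15.35, 15.21 and 14.95 in female thorax. Both sexes of thorax lay together, well clear of the highest germline array. The change was -7.11 ± 0.22 (SE, limma adjusted p = 3.84e-10) against male thorax, -4.77 with no scaling, and all 7 probes of the gene were lower. The muscle markers moved with it, at a summed level of 11.72 to 13.03 in germline and 20.29 to 20.95 in male thorax, with up (troponin T) well above background on no germline array, and their part was not tested. Actbeta, an activin-type ligand, had means of 6.58 ± 0.24 and 11.11 ± 0.32 (SD, n = 4). mav (maverick) fell by 2.13 on the log2 scale at the probe of its RA transcript but had 0.21 there with no scaling, whereas the probe of its RB transcript had -7.19 and was well above background on no germline array.

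Transcription factors and cofactors were the longest list. Of 16 genes, 10 were lower in germline than in male thorax, 3 were higher and 3 were not called at the 75th percentile. Of all genes, 41.2% were lower and 37.5% higher there. Under all 3 scalings 7 were lower and 2 higher, against 19.3% and 36.9% of all genes. The list's median change was -2.01, against -0.08 for 10018 genes of the large autosomes, also by their brightest probe, and -1.05 for all probes.

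onecut encodes a homeodomain factor of neurons. It read 3.25, 2.31, 2.88 and 3.30 in germline, 11.34, 10.91, 11.52 and 11.38 in male thorax, and 10.80, 11.05, 10.53 and 10.92 in female thorax. No germline array was well above background, and every thorax array was. It was at least 68.5-fold higher in male thorax and at least 49.7-fold higher in female thorax (limma change -8.35 ± 0.26 SE against male thorax, adjusted p = 4.02e-10), and remained lower with no scaling, by -6.01. The other 2 probes tested had changes of -7.68 and -4.05.

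zfh2, a gene for a zinc finger and homeodomain factor, had the same form at a lower signal. Its germline arrays read 3.34, 2.52, 3.20 and 3.56, the male thorax arrays 8.69, 8.25, 8.98 and 8.80, and the female thorax arrays 7.90, 8.30, 7.94 and 8.25. None of the germline arrays was well above background and the tissues did not overlap. The bound was at least 11.2-fold in male and 7.50-fold in female thorax (limma change -5.53 ± 0.27 SE against male thorax, adjusted p = 6.73e-09). zfh2 overlaps Thd1 in the annotation, and Thd1 changed by -5.20.

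Mitf, a factor that drives lysosomal genes, was present in both tissues. It read 9.60, 8.32, 8.05 and 8.04 in germline, 13.85, 13.60, 14.37 and 14.31 in male thorax, and 13.91, 14.14, 14.20 and 14.33 in female thorax. All germline arrays were well above background, and all lay below the thorax arrays. The change was -5.53 ± 0.35 (SE, limma adjusted p = 5.00e-08) against male thorax and -3.19 with no scaling, and its 3 probes ran from -6.09 to -5.45.

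sv (shaven), a Pax gene of sensory organ development, had probes called in opposite directions. The brightest, annotated to the RF transcript, read 10.02, 8.93, 8.91 and 8.77 in germline, 7.80, 7.82, 7.28 and 7.44 in male thorax, and 7.92, 8.18, 7.31 and 7.35 in female thorax. This probe was higher on every germline array, by 1.57 ± 0.33 (SE, limma adjusted p = 9.29e-04) against male thorax and 1.47 ± 0.33 against female thorax. A probe of the RE transcript read 3.32, 2.84, 3.05 and 3.45 in germline and 9.49, 9.38, 9.95 and 9.78 in male thorax. That is a change of -6.48 ± 0.22 (SE), or at least 22.0-fold, with no germline array well above background. The third probe, also of RE, had -0.99, which turned to 1.36 with no scaling. With the mean of its probes in place of the brightest, sv was lower in germline, by -1.97. On the shared slide the brightest probe had 2.12 (adjusted p = 0.076) against male thorax. With normexp it had 0.92 against male thorax (adjusted p = 0.121) and 0.13 against female thorax (adjusted p = 0.833).

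lgs (legless), a coactivator of Wingless signalling, read 14.84, 14.46, 14.49 and 14.37 in germline, 13.59, 13.44, 13.85 and 13.76 in male thorax, and 13.33, 13.40, 13.18 and 13.37 in female thorax. Germline lay above thorax on every array. The change was 0.88 ± 0.19 (SE, limma adjusted p = 1.42e-03) against male thorax and 1.22 ± 0.19 against female thorax, with 3.22 against male thorax and no scaling. Its dimmer probe had -1.50, which was not called, and the mean of both probes had -0.31 (adjusted p = 0.529).

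Hcf, a chromatin cofactor gene, had 4 probes, of which 2 were higher in germline than in male thorax, 1 was lower and 1 was not called. The brightest read 14.74, 14.37, 14.35 and 14.26 in germline and 13.70, 13.67, 14.25 and 13.97 in male thorax, a change of 0.53 ± 0.21 (SE, limma adjusted p = 0.0391). The groups were separated by a narrow margin, and the change against female thorax, 0.49, was not called (adjusted p = 0.057). The second rising probe read 14.74, 13.69, 13.62 and 13.60 in germline and 12.96, 12.92, 13.56 and 13.47 in male thorax, for a change of 0.68 ± 0.29 (adjusted p = 0.0496). After quantile normalization neither passed (adjusted p of 0.065 and 0.151), and the brightest also missed the threshold with no filter (adjusted p = 0.052), on the shared slide and with 7 of the 12 arrays left out singly. The falling probe read 3.28, 4.93, 3.70 and 3.38 in germline and 10.37, 9.97, 9.71 and 9.46 in male thorax. It was well above background on no germline array, and at least 24.2-fold higher in male thorax. All 4 probes are annotated to the same transcript.

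Among the other transcriptional genes, Pur-alpha, which binds single-stranded nucleic acid, had means of 10.32 ± 0.44 in germline and 15.54 ± 0.59 in male thorax (SD, n = 4). Sox102F, an HMG-box factor gene, changed by -5.05 ± 0.79 (SE), with 3.23 on germline replicate 1 and 7.18 to 7.51 on the others, against 11.34, 11.54, 11.00 and 11.59 in male thorax. Without replicate 1 its change was -4.02 ± 0.17 (SE). dati, a zinc finger gene, changed by -4.99, and pho, whose product recruits Polycomb proteins to DNA, by -3.26. The effectors of 2 signalling pathways, ci of Hedgehog and pan (TCF) of Wingless, had -2.32 and -1.41 at the 75th percentile but 0.021 and 0.93 with no scaling. The other 4 probes of pan had larger changes, from -7.01 to -4.06. MED26, a Mediator subunit gene, had -1.69, or 0.65 with no scaling. The Pax6 genes ey and toy and the forkhead gene fd102C were not called at their brightest probes, with changes of -0.17, -0.41 and -0.72 that were above 0 under the other 2 scalings. The other probe of ey was called lower against male thorax at the 75th percentile, by -1.02, and had -0.10 against female thorax.

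**Figure D2:**
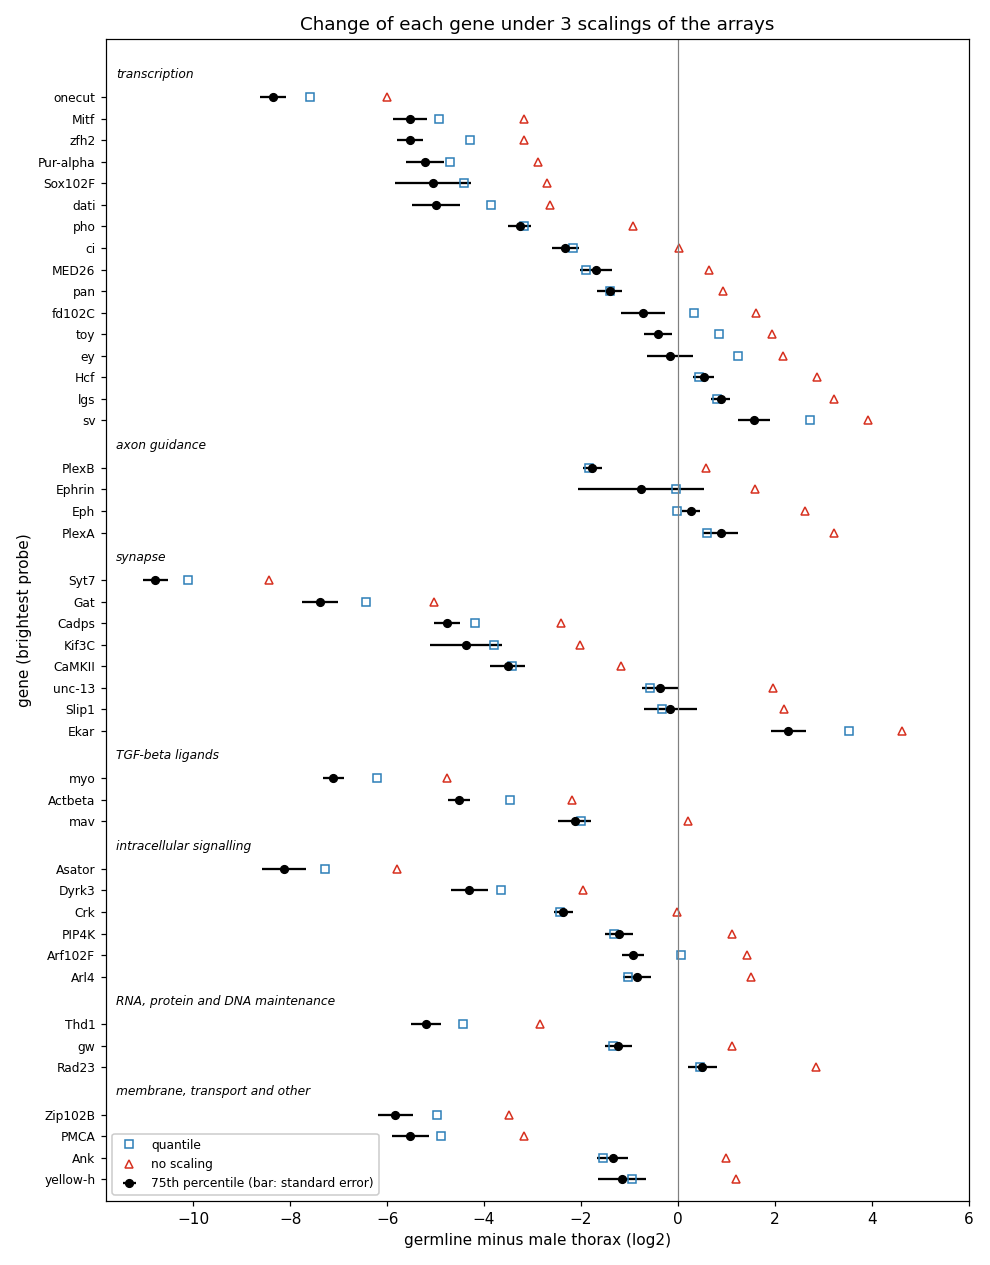
Germline minus male thorax on the log2 scale (x axis) for the 44 tested genes, grouped by role, at a common 75th percentile (black, bars are standard errors of the fit), after quantile normalization (squares) and with no scaling (triangles). The 19 genes that stay left of 0 and pass under all 3 scalings include Syt7, onecut, Asator, Gat and myo, and with no scaling 18 genes pass to the right of 0.

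The 6 genes of intracellular signalling were all lower in germline at the 75th percentile, but under all 3 scalings only Asator and Dyrk3 were. Against male thorax, 41.2% of all genes were lower at the 75th percentile and 19.3% under all 3 scalings. Asator, a kinase gene of the tau tubulin kinase family, read 6.55, 4.33, 4.56 and 4.00 in germline, 13.06, 12.81, 13.04 and 13.06 in male thorax, and 12.74, 12.92, 12.74 and 12.90 in female thorax. Only 1 germline array was well above background, and the gap to thorax was wide. The change was -8.14 ± 0.46 (SE, limma adjusted p = 1.90e-08) against male thorax and -5.79 with no scaling. Its second probe gave 0.26, or 2.60 with no scaling, and was called under none of the 3 scalings. It read 3.28, 9.44, 9.52 and 9.73 in germline and 8.51, 8.54, 6.45 and 7.45 in male thorax, so that germline replicate 1 alone lay below thorax. Without that replicate this probe was higher in germline by 1.83 ± 0.55 (SE, limma adjusted p = 0.00962), while the brightest was lower by -8.70. Both probes carry the same transcript name, and Asator overlaps CG33941 in the annotation.

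Dyrk3, a dual-specificity kinase gene, had means of 8.73 ± 0.88 in germline and 13.03 ± 0.15 in male thorax (SD, n = 4), and its 4 probes were all lower. Crk, an SH2 and SH3 adaptor, changed by -2.36, and PIP4K, a phosphoinositide kinase gene that overlaps CG33521, by -1.22, which was 1.13 with no scaling. The small GTPase genes Arf102F and Arl4 had -0.93 and -0.84, and 1.42 and 1.50 with no scaling.

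Among genes of membrane and transport, Zip102B, of the ZIP family of zinc transporters, read 7.30, 6.45, 5.53 and 5.63 in germline, 11.91, 11.87, 12.02 and 12.42 in male thorax, and 12.31, 12.51, 12.07 and 12.38 in female thorax. The germline arrays were spread from replicate to replicate but stayed far below thorax. The change was -5.83 ± 0.36 (SE, limma adjusted p = 4.26e-08) against male thorax and -3.49 with no scaling, and the second probe had -2.94. PMCA, the calcium pump of the plasma membrane, had means of 10.47 ± 0.80 and 15.99 ± 0.18 (SD, n = 4), with all 5 probes lower, and overlaps Rnf11. Ank, an ankyrin that links membrane proteins to spectrin, had -1.35, or 1.00 with no scaling. yellow-h, of the yellow family, had -1.15 ± 0.49 (SE) and narrowly missed the threshold (adjusted p = 0.052).

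Of the genes for RNA, protein and DNA maintenance, Thd1 (thymine DNA glycosylase) was lower under all 3 scalings, at 7.82 ± 0.67 in germline and 13.02 ± 0.09 in male thorax (SD, n = 4). gw, the GW182 protein of microRNA silencing, had -1.23, or 1.11 with no scaling. Rad23, which delivers ubiquitinated proteins to the proteasome, was not called, with 14.47 ± 0.48 and 13.97 ± 0.37.

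Axon guidance genes had a median change of -0.24 over 4 genes at the 75th percentile, which was -0.0345 after quantile normalization and 2.10 with no scaling, and no gene was called in one direction under all 3 scalings. PlexB, a plexin receptor for semaphorins, was lower at the 75th percentile, by -1.76 ± 0.19 (SE), but had 0.58 with no scaling. PlexA, the other plexin, was higher, by 0.88 ± 0.36 (SE, limma adjusted p = 0.044), with 14.67 on germline replicate 1 and 12.90 to 13.08 on the other 3, and was not called after quantile normalization or against female thorax. Without that replicate the change against male thorax was 0.46 (limma adjusted p = 0.0136). The call of PlexA was also lost with any thorax array left out singly, with no filter, on the shared slide and with the mean of its probes. Ephrin, the ligand, read 5.11 on germline replicate 1 and 11.84 to 12.07 on the others. Its change was -0.76 with all arrays, which was not called, and 0.95 without that replicate (limma adjusted p = 0.0197). A second probe, at 9.61 to 10.01 in germline and 10.79 to 11.15 in male thorax, was lower by -1.21 ± 0.21 (SE, limma adjusted p = 2.20e-04) but had 1.14 with no scaling, and the third had 0.48 and was not called. Eph, its receptor, had 0.27 at the probe of the RD transcript, which was not called, and -4.92 at the probe of the RC transcript.

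The agreement between probes of a gene was described for the list only, and no such count was made over all genes with several probes. Of 32 genes with 2 or more probes tested, every tested probe was lower in germline than in male thorax for 21, some were lower and the rest not called for 6, no probe was lower for 3, and sv and Hcf had probes called in both directions. Without germline replicate 1, Asator and Ephrin did as well. Over all tested probes of the 45 genes, 80 (76.2%) were lower and 7 (6.67%) higher, against 47.2% and 29.3% of all probes. Of the 19 genes lower under all 3 scalings, a set already picked as lower by the brightest probe, every tested probe was lower for 18, the exception being Asator. With the mean of all probes of a gene in place of the brightest, 36 genes were lower and 1 was higher, against 41.9% and 35.5% of 12044 genes. Levels of the probes of one gene are not independent of each other, and the position of a probe within its gene is not known here beyond the transcript name.

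**Figure D3:**
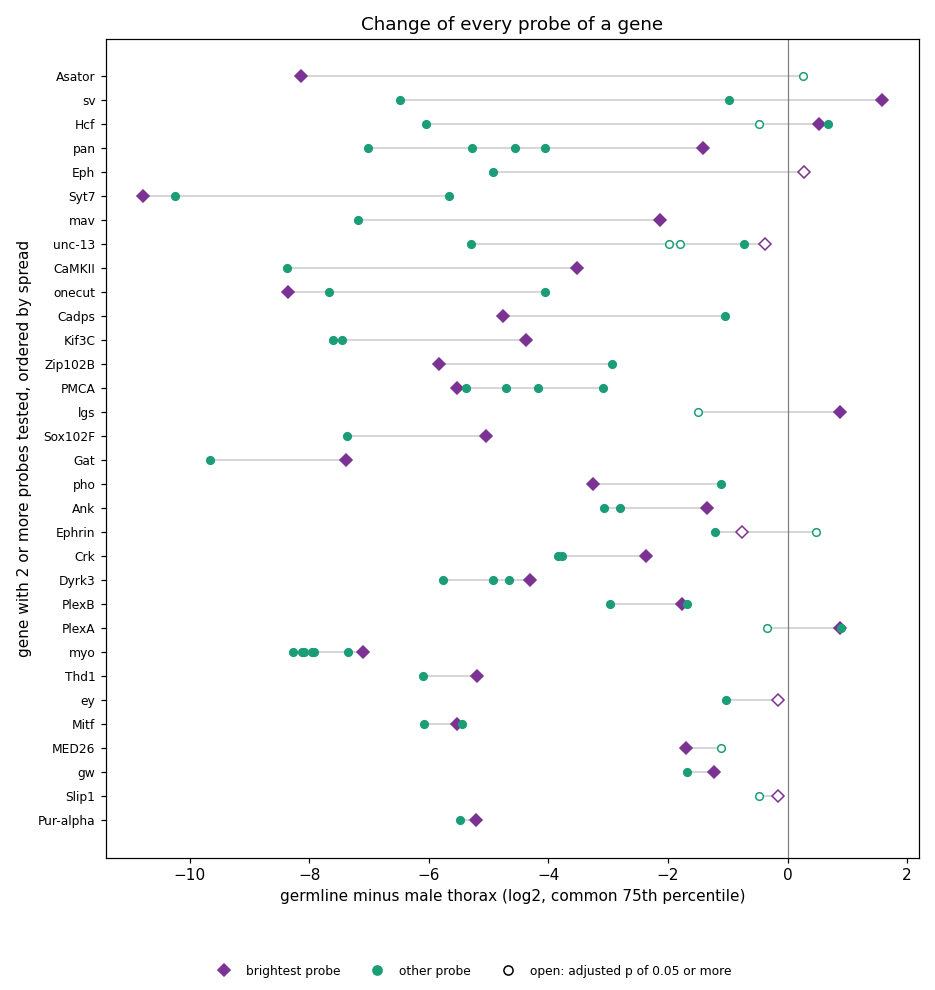
Germline minus male thorax on the log2 scale at a common 75th percentile (x axis) for every tested probe of the 32 genes with 2 or more (rows, ordered by the spread between probes). Diamonds are the brightest probes, circles the others, and open symbols did not pass. Asator, sv and Hcf have the widest spread, with probes on both sides of 0.

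Male and female thorax were compared last. With limma no gene of the 44 passed, and the smallest adjusted p was 0.396, for toy. Of all probes, 0.37% were called lower in male thorax and 0.153% higher. Only toy had an unadjusted p under 0.05 in the limma fit, where 7.62% of all probes did. The changes, male minus female, ran from -0.80 for Sox102F to 0.89 for toy, with a median of 0.05. The arrays of the sexes did not overlap for 5 genes, or 11.4%, against 15.3% of all genes. Sox102F was lower in males (11.00 to 11.59 against 12.07 to 12.33), and toy (8.70 to 9.36 against 7.78 to 8.43), dati, Thd1 and lgs were higher. Without germline replicate 1, which enters through the shared estimate of the spread, 3 genes passed, or 6.82% of the 44 against 5.87% of all genes, with the same changes: Sox102F (-0.80 ± 0.15 SE, adjusted p = 0.0198), toy (0.89 ± 0.19, adjusted p = 0.0313) and dati (0.75 ± 0.18, adjusted p = 0.047). In a fit of the 8 thorax arrays alone none passed (adjusted p of 0.074, 0.105 and 0.126).

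The slide moved with the thorax level of some genes, among the 44 as over all genes tested. On the slide that held only thorax, all 4 arrays lay above the thorax arrays of the other slides for 10 of the 44 genes and below them for 3, where 12.7% and 19.3% of all genes did so. Slip1 read 14.61 to 15.34 there and 13.33 to 13.92 elsewhere, a difference of 1.42, and fd102C differed by 1.35. Its part in the comparisons with germline is given by the fits with the slide as a block, in which Slip1 was higher in germline than in male thorax by 0.75 (limma adjusted p = 0.0493) and fd102C had 0.015. The block also ended the calls of Arl4 (-0.65, adjusted p = 0.078) and PlexA (0.90, adjusted p = 0.067).

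The other 34 genes of chromosome 4, described in the same way, had a median change of -3.04 from male thorax to germline. At the 75th percentile 24 were lower, 3 higher and 7 not called, against 41.2% lower and 37.5% higher of all genes. Under all 3 scalings 16 were lower and 3 higher, against 19.3% and 36.9% of all genes. The 34 include NfI, a transcription factor gene, at least 764.1-fold higher in male thorax at the 75th percentile, and bt, a titin-like muscle gene that also served as a marker. JYalpha, a sodium pump gene needed for male fertility, was higher in germline by 8.20 ± 0.49 (SE, limma adjusted p = 3.12e-08). The difference between these genes and the 45 was not tested.

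Of 5 genes listed as regulators of the fourth chromosome or of heterochromatin, 4 were higher in germline than in male thorax under all 3 scalings, as were 36.9% of all genes. Pof read 16.34, 15.95, 16.01 and 15.94 in germline and 10.73, 10.66, 11.49 and 11.16 in male thorax. This is a change of 5.05 ± 0.24 (SE), with no overlap. The methyltransferase gene egg changed by 1.35, its cofactor wde by 1.43 and the gene of HP1a by 1.24. Su(var)3-9, a second methyltransferase gene, had 0.06 and was not called. Whether these levels bear on the 45 genes was not tested.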

How the data were processed

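RNA of premeiotic germline, male thorax and female thorax was measured on 4 one-colour Agilent arrays each. The deposited intensities were made by the scanner software from each spot, with the background subtracted and small values replaced by a positive surrogate, and with no scaling between arrays; the submitters' processing notes name Agilent Feature Extraction 9.1 and limma, and the file headers a later version. The deposited log2 table of the authors holds 1 value per probe and tissue, averaged over spots and arrays and not scaled, and served as an alternative. No per-sample column was left without a sample or group. The labels give 1 sample per tissue, and the 4 arrays of a tissue, numbered here by slide and position, are independent RNA pools per the methods of the study.

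Control and outlier spots were left out, replicate spots were averaged, and log2 values were set to a common 75th percentile. Probes were placed through the reference annotation by locus tag (18121), older locus tag (1248) or accession (115), and 12678 were not placed; of the 110 probes of the 45 genes, 102 were placed by locus tag and 8 by an older one. Probes with an unscaled mean below log2 7 in all 3 tissues were removed, as in the study, which left 24878. limma 3.58.1 (R 4.3.3) was fitted over all 12 arrays with equal weights and Benjamini-Hochberg adjustment over all probes, after a check on simulated data; tables used Python 3.11.15, numpy 2.4.6, pandas 2.3.3 and matplotlib 3.10.9. A gene's brightest probe stands for it. Values on each array are given for up to 8 genes with the largest fall and up to 8 with the largest rise among those called in germline against male thorax under all 3 scalings, and for genes with probes called both ways; in each role list up to 4 further genes of large change have their means or changes, and the rest are given with their changes. The number of arrays limits the precision. The genes, role lists and markers were chosen with earlier results of these data known. Alternatives covered the background correction (normexp with offset 50, on median spot signals since the files hold no mean signal), scaling, filter, probes of a gene, slide, array weights and each array left out. No sequence is shown, since none of a probe or gene was at hand.

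Besides germline and muscle, the marker lists of other cells, germline against male thorax at the 75th percentile, gave for testis cyst and hub 2 lower and 2 higher of 6, for haemocytes 3 lower of 3, for fat body 4 lower of 4, which include the fourth-chromosome gene apolpp, and for epidermis and cuticle 3 lower of 3 tested.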

Additional observations from a re-analysis of the deposited data

Results flagged for a closer look

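In 23 of 134 groups of 4 arrays of one gene and tissue, the highest or lowest array lay further from the others than Dixon's 95% limit allows, and chance gives about 1 in 20 groups. Of these, 20 were germline replicate 1, which lay above the other 3 germline arrays in 12 genes and below them in 8. It was high for ci (11.60), sv (10.02), dati (7.51), Pur-alpha (10.98), PlexA (14.67), unc-13 (13.56), Ekar (9.48), CaMKII (12.70), Slip1 (15.06), PIP4K (14.80), gw (14.79) and Rad23 (15.18). It was low for toy (7.90), Sox102F (3.23), Ephrin (5.11), Gat (6.58), Kif3C (6.49), myo (7.86), Dyrk3 (7.41) and PMCA (9.27). The remaining 3 were mGluR on male thorax replicate 3 (6.85, low), Syt7 on female thorax replicate 3 (13.77, high) and Asator on male thorax replicate 2 (12.81, low).

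Germline replicate 1 also had the lowest share of probes well above background (56.4%) and the most outlier spots (389, against 112 to 219 on the other arrays). Without it, 31 of the 44 genes were lower and 6 higher in germline than in male thorax, against 30 and 5 with it, and Ephrin turned from -0.76 to 0.95. What set this array apart was not tested.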

How the results depend on the processing

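No paired analysis was possible because the labels give the arrays of a tissue no number of their own, and the slide was fitted as a block instead. The direction of a small change between germline and thorax hangs on the scaling, and the arrays give no absolute level to settle it. The 8 largest falls (Syt7, onecut, Asator, Gat, myo, Zip102B, Mitf and zfh2) were called lower in both comparisons under all alternatives that gave a value for them, with adjusted p at most 0.00921; sv, lgs and Ekar were not. Over the changes of single genes, 1093 results under an alternative kept their direction and their side of the threshold, 47 lost the call, 16 gained it and 37 turned their direction.

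Against male thorax, the count of lower genes (30) was 19 with no scaling and 19 on the shared slide. The count of higher genes (5) was 18 with no scaling, 3 with normexp, 3 with no filter, 1 with the mean of probes, 0 on the shared slide and 8 with array weights, and 3 to 6 with each array left out, 3 being reached without male thorax replicate 1, 2 or 4 or female thorax replicate 1 or 4. Against female thorax, lower genes (30) were 18 and higher genes (3) were 20 with no scaling, and higher genes were 1 with the mean of probes, 7 on the shared slide and 7 with array weights. Between male and female thorax (0) the count was 3 with array weights and 3 without germline replicate 1, and 0 to 3 with each array left out.

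The median change against male thorax (-1.95) was 0.40 with no scaling, 0.79 in the authors' table, -2.13 with no filter, -1.38 over probes well above background on all arrays, -2.41 with the mean of probes, -1.71 with the slide as a block, -2.22 with array weights, and -2.26 to -1.83 with each array left out. Against female thorax (-1.96) it was 0.70 with no scaling, 1.04 in the authors' table, -1.35 over probes above background on all arrays, -2.44 with the mean of probes, -2.22 on the shared slide, -2.36 with array weights, and -2.26 to -1.84 with each array left out. Between the thoraxes (0.05) it was 0.35 with no scaling, -0.087 with the slide as a block, -0.11 on the shared slide, 0.34 in the authors' table, and -0.05 to 0.12 with each array left out. The probes well above background on all arrays leave out genes that are dim in one tissue, such as Syt7 and onecut.

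Single genes turned their direction against male thorax as follows. With no scaling, which adds the same shift to all genes, these were ci (0.021), ey (2.18), toy (1.94), pan (0.93), fd102C (1.62), MED26 (0.65), PlexB (0.58), Ephrin (1.59), unc-13 (1.97), Slip1 (2.18), mav (0.21), PIP4K (1.13), Arl4 (1.50), Arf102F (1.42), gw (1.11), Ank (1.00) and yellow-h (1.19). With quantile normalization they were ey (1.24), toy (0.85), fd102C (0.33), Eph (-0.028) and Arf102F (0.071). With the slide as a block they were ey (0.40), fd102C (0.015) and Slip1 (0.75), and on the shared slide ey (0.90) and Slip1 (0.65). With the mean of probes they were sv (-1.97), lgs (-0.31), Hcf (-1.33) and Eph (-2.33), and sv also against female thorax (-1.94). Ephrin had 0.61 with array weights and -1.37 to 0.95 with each array left out, the highest without germline replicate 1. With each array left out ey had -0.56 to 0.093 and Slip1 -0.49 to 0.025, the highest of both without male thorax replicate 1. Apart from the common shift with no scaling, the causes were not tested.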
